A study of Mus musculus with 15 samples.

Results

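Fibroblasts of the TAF-tib42 source, labelled resistant, were compared with fibroblasts of the NSF source, labelled sensitive, across all genes of a mouse expression array. The comparison takes every array titled TAF-tib42 and every array titled NSF, which is 3 against 3, or 6 of the 15 arrays of the series. The series concerns fibroblasts from tumours that do not respond to treatment against VEGF, the vascular endothelial growth factor. Its other 9 arrays hold 3 further sources, TAF-el4 and TAF-tib48, labelled resistant, and TAF-tib6, labelled sensitive. TAF is read here from the series title as tumour-associated fibroblast. The labels do not spell out NSF, el4 or the tib names, and give no strain, age, tissue of origin or culture condition. On each array, Cy5-labelled total RNA of the source was hybridised against the same Cy3-labelled commercial reference RNA, a mixture made from mouse cells, and the dyes were never swapped. TAF-tib42 and NSF are each 1 source. The labels call the 3 arrays of a source replicates without saying whether they came from separate cultures or animals, so p-values here take only the spread from array to array into account, and that spread may be technical.

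Fibroblasts build and remodel connective tissue: they secrete collagens, proteoglycans and the proteases that cut them, and they release chemokines, growth factors and complement proteins that act on vessels and immune cells. Those taken from tumours often differ from those of normal tissue in contractile proteins, secreted ligands and inflammatory genes. They also carry the type I interferon receptor, and on binding interferon they switch on a shared set of antiviral genes.

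A level below is the log2 ratio of Cy5 to Cy3, that is, of the source over the reference RNA, and a difference is the mean level in TAF-tib42 minus the mean level in NSF, given with its standard error (SE) from the fit. Levels of different genes cannot be set against each other on this scale. Of 31177 genes tested, 7462 (23.9%) were called, meaning an adjusted p under 0.05: 3354 (10.8%) were higher in TAF-tib42 and 4108 (13.2%) lower. A change of at least 2-fold was called higher for 47 genes (0.151%) and lower for 236 (0.757%). The 3 arrays of one source did not overlap those of the other for 12013 genes (38.5%), with TAF-tib42 above NSF in 5731 (18.4%) and below it in 6282 (20.1%). Genes named below for the size of their difference were picked among those without overlap. For them, separation of the arrays was a condition of entry and is no added evidence. A share of list members called, given below, compares with 10.8% called higher and 13.2% lower over all genes tested. Correlations over all genes ran from 0.976 to 0.978 among the TAF-tib42 arrays and from 0.98 to 0.982 among the NSF arrays, against 0.872 to 0.883 between the sources. No label names a batch. The slides were grouped into 3 packs by runs of consecutive slide barcodes, and no pack held both sources. TAF-el4 had arrays in the packs of both, but only its replicate 3 lay in that of TAF-tib42. With the pack as a block in the fit, which ties the sources together only through TAF-el4, 2423 genes were called, among them 278 of the 283 called genes with a change of at least 2-fold, all 278 in the same direction.

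Fibroblast collagen genes were bright in both sources. The brightest probes of Col1a1, Col1a2 and Col3a1 saturated the scanner on all 6 arrays, so no fold is given for them. Dimmer probes of Col1a1 differed by 0.13 and 0.045, and a dimmer probe of Col3a1 by 0.16. All 16 fibroblast markers were well above background in both, among them Fap at a mean Cy5 intensity of only 74.4 in TAF-tib42 and 79.6 in NSF. So were 89.7% to 95.8% of all Cy5 probes on an array, so passing does not mark a cell type. Of the 16 fibroblast markers, 6 (37.5%) were called lower in TAF-tib42 and the other 10 were not called. Decorin (Dcn), described below, had the largest difference of them, and Thy1, a surface glycoprotein used to isolate fibroblasts, differed by -0.74 (adjusted p = 7.7e-10). Of 17 macrophage and myeloid markers, 5 were called higher and 2 lower (1 and 1 with the pack block), with a summed Cy5 intensity of 4490 to 4650 in TAF-tib42 and 4100 to 4300 in NSF. These intensities include the offset of 50 added in background correction, so none can be near 0, and a sum holds the offset for every marker. Tyrobp, an adaptor of myeloid receptors, had the highest difference of the macrophage markers, 0.73, at a mean intensity of 146 in TAF-tib42 and 87.4 in NSF. The pan-leukocyte gene Ptprc lay at 66.8 and 57.2. The dimmest probes well above background lay at 54.3 to 62.5 on the TAF-tib42 arrays and 53 to 62 on the NSF arrays. Of 15 endothelial markers, 5 were called lower (2 with the pack block), and their summed intensity was 2550 to 2730 in TAF-tib42 and 2520 to 2820 in NSF. In bulk RNA, fewer cells of a type and less RNA per cell cannot be told apart.

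Interferon-stimulated genes were higher in TAF-tib42. Of the 47 tested from a list of 50, 34 (72.3%) were called higher and the other 13 were not called. The median difference was 0.80, against -0.0042 over all genes tested. The mean level of the list was 0.737 to 0.783 on the TAF-tib42 arrays and 0.016 to 0.087 on the NSF arrays. Beside this, the 17 macrophage markers summed to a Cy5 intensity of 4490 to 4650 in TAF-tib42 and 4100 to 4300 in NSF. The 17 lymphocyte markers summed to 15300 to 15800 in TAF-tib42 and 24300 to 25700 in NSF, most of it from Thy1, which fibroblasts share, at a mean of 11800 in TAF-tib42 and 21400 in NSF. The part of such cells in the result was not tested.

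Regulatory sequence is shown for 4 of these genes, each chosen for holding at least 2 matches, because the interferon-stimulated response element (ISRE), the site bound by the transcription factors of interferon signalling, lies close to the start of many of them. RefSeq promoter windows on GRCm38.p6, running from 250 bases before to 50 bases after the gene start, were searched on both strands for GAAA, then NN (any bases), then GAAA, an ISRE-like pattern whose matches may overlap each other. Capitals mark the matches.
Isg15, chr4:156200769-156201068, minus strand: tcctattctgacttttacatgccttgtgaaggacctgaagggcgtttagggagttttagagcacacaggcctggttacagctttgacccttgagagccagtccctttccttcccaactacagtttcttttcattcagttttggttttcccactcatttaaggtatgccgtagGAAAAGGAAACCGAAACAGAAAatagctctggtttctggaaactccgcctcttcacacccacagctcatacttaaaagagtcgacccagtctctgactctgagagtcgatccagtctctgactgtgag
Ifit1, chr19:34640639-34640938, plus strand: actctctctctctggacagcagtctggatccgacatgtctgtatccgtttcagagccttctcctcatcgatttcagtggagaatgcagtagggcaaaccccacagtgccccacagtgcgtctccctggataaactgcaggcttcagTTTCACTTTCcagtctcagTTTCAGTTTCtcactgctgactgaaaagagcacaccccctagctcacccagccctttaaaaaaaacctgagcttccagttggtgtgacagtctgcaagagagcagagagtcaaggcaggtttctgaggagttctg
Gbp3, chr3:142559794-142560093, plus strand: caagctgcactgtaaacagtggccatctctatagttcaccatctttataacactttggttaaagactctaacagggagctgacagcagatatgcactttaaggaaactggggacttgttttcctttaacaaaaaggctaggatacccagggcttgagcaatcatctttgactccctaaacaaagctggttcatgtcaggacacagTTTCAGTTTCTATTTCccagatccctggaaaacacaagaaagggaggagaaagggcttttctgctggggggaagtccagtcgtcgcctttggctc
Bst2, chr8:71537423-71537722, minus strand: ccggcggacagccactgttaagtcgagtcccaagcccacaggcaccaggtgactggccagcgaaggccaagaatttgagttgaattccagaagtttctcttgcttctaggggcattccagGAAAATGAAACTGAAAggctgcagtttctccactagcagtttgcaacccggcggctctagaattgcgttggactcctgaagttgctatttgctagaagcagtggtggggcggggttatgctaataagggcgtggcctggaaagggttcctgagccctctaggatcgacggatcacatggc
The window of Isg15 held 3 overlapping matches that begin 78, 72 and 66 bases before the start. That of Ifit1 held 2 separate ones at 104 and 85 bases, and those of Gbp3 and Bst2 held 2 overlapping ones each, at 45 and 39 and at 130 and 124 bases. The pattern was present in 18 of the 32 tested interferon-stimulated genes with a window (56.2%), against 3.99% of all 27025 genes with one. It was present in 12 of the 22 such genes called higher (54.5%) and in 6 of the 10 not called (60%). A match is a run of letters and was not tested as a bound site, and 15 of the 47 genes had no window. Among the genes described next, the Trim30a window held 1 match and the Oasl2 window held none.

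The largest differences were in genes that modify proteins or bind viral RNA. Isg15, a ubiquitin-like protein that is attached to other proteins, was at 2.79, 2.73 and 2.71 in TAF-tib42 and at 0.79, 0.70 and 0.74 in NSF. Usp18, the protease that removes it and also dampens the interferon receptor, was at 0.54, 0.45 and 0.51 in TAF-tib42 and at -1.21, -1.36 and -1.41 in NSF. Ifit1, which binds foreign RNA ends and has 2 ISRE-like matches above, was at 2.69, 2.55 and 2.57 in TAF-tib42 and at 1.0, 0.70 and 0.79 in NSF. In all 3 genes every TAF-tib42 array lay above every NSF array by more than the spread within a source. The differences were 2.0 ± 0.17 for Isg15 (4.01-fold, adjusted p = 5.6e-08), 1.83 ± 0.13 for Usp18 (3.55-fold, adjusted p = 3.5e-09) and 1.78 ± 0.17 for Ifit1 (3.42-fold, adjusted p = 3e-07).

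Gbp3, a guanylate-binding GTPase that attacks the vacuoles of intracellular microbes, was at 2.05, 2.14 and 2.03 in TAF-tib42 and at 0.53, 0.54 and 0.47 in NSF. Its difference was 1.56 ± 0.16 (2.95-fold, adjusted p = 5.3e-07). Bst2, or tetherin, which holds budding viruses at the membrane, was at 1.2, 1.06 and 1.06 in TAF-tib42 and at -0.43, -0.43 and -0.33 in NSF, a difference of 1.5 ± 0.11 (2.84-fold, adjusted p = 5.8e-09). Neither gene had overlapping arrays. Oasl2, of the oligoadenylate synthetase-like family, was at 1.79 and 1.79 in TAF-tib42 and at 0.38, 0.27 and 0.24 in NSF, with 1 TAF-tib42 spot dropped by the scanner's outlier flag, and differed by 1.49 ± 0.17 (adjusted p = 4.8e-06). The receptor-transporting protein Rtp4 and the tripartite-motif protein Trim30a, both antiviral or inflammatory regulators induced by interferon, differed by 1.39 ± 0.16 and 1.38 ± 0.092. Ifit3, a partner of Ifit1, and Ifi44 differed by 1.01 and 1.0, and their arrays did not overlap. The pack block raised the fold of 4 of these genes by more than 1.5 times: the difference was 2.80 for Isg15, 2.46 for Ifit1, 2.26 for Gbp3 and 2.10 for Oasl2. The block ties TAF-tib42 to NSF through TAF-el4 replicate 3. There the mean level of the interferon list was -0.38, against -0.078 and -0.24 on TAF-el4 replicates 1 and 2.

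The transcription factor Irf7 had a smaller difference than the genes above. Irf7, which amplifies interferon production, was at 0.61, 0.27 and 0.53 in TAF-tib42 and at -0.38, -0.36 and -0.38 in NSF, a difference of 0.84 ± 0.074 (adjusted p = 9.4e-08). Its arrays did not overlap between the sources. Not every member was called: Rsad2, or viperin, was at -0.28, -0.25 and -0.31 in TAF-tib42 and at -0.25, -0.20 and -0.28 in NSF, and Ifitm3, an inhibitor of virus entry, was at 1.04, 1.06 and 0.91 in TAF-tib42 and at 0.96, 1.06 and 1.03 in NSF. The arrays of both overlapped, and their adjusted p were 0.68 and 0.91.

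**Figure D1:**
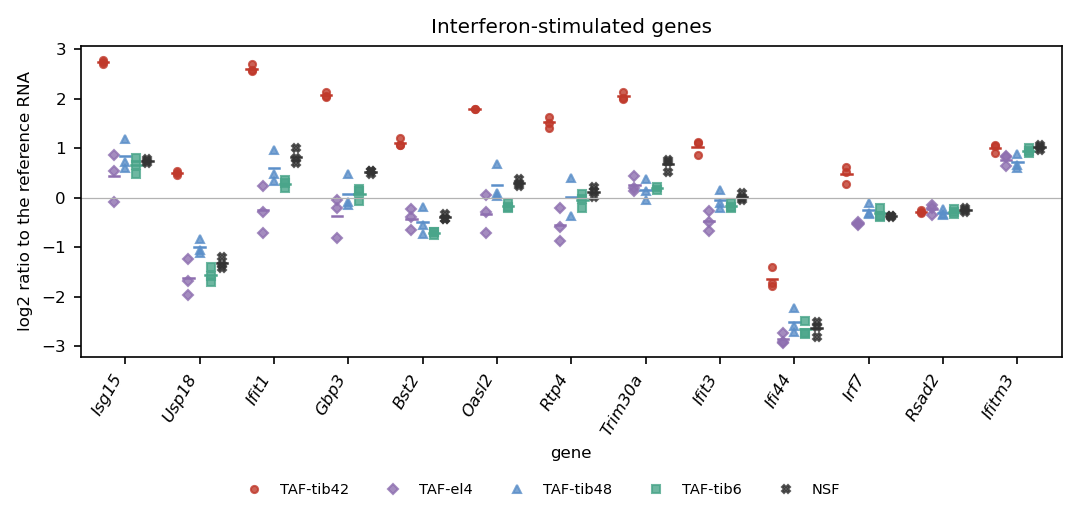
Levels of 13 interferon-stimulated genes, as the log2 ratio to the reference RNA (vertical axis), in the 5 sources; each point is 1 array and each short line the mean of 3. TAF-tib42 lies above NSF and the other TAF sources for Isg15 to Irf7, while for Rsad2 and Ifitm3 the TAF-tib42 and NSF arrays overlap.

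The ligands and receptors of the pathway were not called higher with its targets. Ifnb1, the type I interferon that fibroblasts make, was at 0.21, -0.028 and 0.12 in TAF-tib42 and at 0.069, 0.03 and -0.01 in NSF and was not called (adjusted p = 0.4). The receptor chains Ifnar1 and Ifnar2 were called lower, with differences of -0.31 ± 0.037 and -0.33 ± 0.055. The kinases bound to those chains differed in opposite directions: the difference was -0.45 ± 0.053 for Jak1 and 0.19 ± 0.041 for Tyk2, which was not called with the pack block (adjusted p = 0.061). These ligands, receptors and kinases were looked up after the values of the interferon-stimulated genes had been seen.

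Genes of the p200 family, interferon-inducible DNA sensors in a cluster on chromosome 1, showed the same direction. Of the 5 tested, 3 (60%) were called higher: Ifi204 by 0.79 ± 0.078, Ifi203 by 0.71 ± 0.091 and Ifi205 by 0.35 ± 0.077. Members of this cluster are close copies, so a probe may read more than 1 of them, and a dimmer probe of Ifi204 differed by 0.27. Of 19 genes of MHC class I antigen presentation, which shows peptides to T cells, 12 (63.2%) were called higher and 1 (5.26%) lower. Their median difference was 0.29. The class I heavy chain H2-D1 was at 0.21, 0.16 and 0.091 in TAF-tib42 and at -0.83, -0.82 and -0.79 in NSF, a difference of 0.96 ± 0.057 (1.95-fold, adjusted p = 3.5e-10) with no overlap. Genes of the immunoproteasome, which cuts proteins into peptides for this pathway, followed: Psmb9 differed by 0.61 ± 0.058 and Psmb8 by 0.59 ± 0.098. The peptide transporter Tap1 differed by 0.59 ± 0.065 and the heavy chain H2-Q7 by 0.55 ± 0.077. The light chain B2m was at -0.75, -0.56 and -0.65 in TAF-tib42 and at -0.55, -0.64 and -0.56 in NSF, overlapped between sources and was not called (adjusted p = 0.5). The heavy-chain genes are near copies of one another, and hybridisation between them cannot be told apart here.

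Among chemokines, more genes were called lower than higher, and most were not called. Of 15 CXC chemokines and receptors, 1 (6.67%) was called higher and 4 (26.7%) lower, and the size lay in a few genes. Cxcl12, the ligand of Cxcr4 that draws in stem cells and leukocytes, was at -1.94, -2.02 and -2.14 in TAF-tib42 and at 1.89, 2.04 and 2.10 in NSF. Its difference of -4.04 ± 0.17 (16.5-fold lower, adjusted p = 4.7e-12) was the lowest of the named genes, and another probe, nearly as bright, differed by -4.72. Cxcl14, a chemokine of skin and other epithelia, was at 0.14, 0.14 and 0.18 in TAF-tib42 and at 3.29, 2.98 and 3.25 in NSF, a difference of -3.02 ± 0.077 (adjusted p = 4.7e-15). Neither gene came near overlap. Further on, levels in the other TAF sources are given for Cxcl12, and the difference from their mean for Cxcl14. Ackr3, the receptor that takes up Cxcl12, was lower (difference -0.89 ± 0.046). Cxcl10, a T cell attractant induced by interferon, was the one called higher, at 0.55 ± 0.097 (adjusted p = 0.00035), and was not called from the Cy5 channel alone (adjusted p = 0.13). The neutrophil attractant Cxcl5 was at 4.64, 4.25 and 4.27 in TAF-tib42 and at 3.91, 4.20 and 4.18 in NSF, which was not called (adjusted p = 0.43).

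Of 33 CC chemokines and inflammatory cytokines, 5 (15.2%) were called higher and 12 (36.4%) lower. With the pack block 9 were called lower and the other 24 were not called. Il33, an alarmin stored in the nucleus, was at -2.99, -3.04 and -3.14 in TAF-tib42 and at -1.41, -1.40 and -1.48 in NSF, a difference of -1.62 ± 0.06 (adjusted p = 6.2e-13). Kitl, the stem cell factor that keeps mast cells and blood progenitors, differed by -1.58 ± 0.054, although its dimmer probe differed by only -0.08. Il6, a cytokine of inflammation and the acute phase, was at 4.24, 4.29 and 4.18 in TAF-tib42 and at 5.0, 5.23 and 5.21 in NSF, a difference of -0.91 ± 0.10 (adjusted p = 1.7e-06). All 3 TAF-tib42 arrays lay below all 3 NSF arrays in each of these genes. The eosinophil attractant Ccl11 differed by -0.72 ± 0.069 and the macrophage growth factor Csf1 by -0.57 ± 0.062. The monocyte attractant Ccl2 was at 2.27, 2.31 and 1.97 in TAF-tib42 and at 2.40, 2.21 and 2.60 in NSF and was not called (adjusted p = 0.11).

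Complement, the plasma cascade that marks cells for removal, had 12 of 26 genes called lower (46.2%) and 2 higher (7.69%). With the pack block 9 were called lower and 1 higher. C3, its central component, was at -1.80, -2.03 and -2.13 in TAF-tib42 and at 1.08, 1.27 and 1.25 in NSF, a difference of -3.19 ± 0.22 (9.1-fold lower, adjusted p = 3.4e-09), and a second, far dimmer probe differed by -0.05. Among genes of the classical pathway, C1s1 differed by -1.49 ± 0.14 (-0.87 by a dimmer probe) and C4b by -1.06 ± 0.07. The C1 inhibitor Serping1 differed by -1.37 ± 0.13. Cfb of the alternative pathway differed by -0.98 ± 0.08. Cfd differed by 0.095 ± 0.048 and was not called. Of 17 acute phase genes, 7 (41.2%) were called lower and 10 were not called. Among them the protease inhibitor Serpina3n was at 0.0056, -0.04 and -0.0021 in TAF-tib42 and at 1.43, 1.23 and 1.5 in NSF, a difference of -1.40 ± 0.069 (adjusted p = 2.8e-11). The iron-binding lipocalin Lcn2 differed by -1.11 ± 0.10. The serum amyloid gene Saa3 differed by -1.03 ± 0.26, and that call was lost with the pack block (adjusted p = 0.42).

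Of 44 growth factor ligands tested, 6 (13.6%) were called higher and 18 (40.9%) lower, with a median difference of -0.10. The share called higher was near the 10.8% over all genes tested. Pdgfc, a ligand of the platelet-derived growth factor receptor alpha, was at 0.30, 0.24 and 0.30 in TAF-tib42 and at -0.86, -0.79 and -0.91 in NSF. Pdgfa, which binds the same receptor, was at 0.88, 0.87 and 0.78 in TAF-tib42 and at 0.42, 0.39 and 0.42 in NSF. Both were higher with no overlap, by 1.13 ± 0.065 (2.19-fold, adjusted p = 2.2e-10) and 0.43 ± 0.053 (1.35-fold, adjusted p = 5.5e-06). Pdgfb, the ligand of the beta receptor, was at -0.07, -0.31 and -0.086 in TAF-tib42 and at -0.091, -0.085 and -0.26 in NSF and was not called (adjusted p = 0.94), and Pdgfd was lower (difference -0.21 ± 0.055, adjusted p = 0.009, but 0.54 with the pack block). Of the receptors, Pdgfra was lower (difference -0.79 ± 0.082, adjusted p = 8.2e-07), while its dimmer probe differed by -0.08, and Pdgfrb differed by -0.025 ± 0.067 (adjusted p = 0.84).

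Vegfa, the ligand that the treatment in the series title is aimed at, was at 0.36, 0.37 and 0.35 in TAF-tib42 and at 0.096, 0.11 and 0.12 in NSF, a difference of 0.25 ± 0.048 (1.19-fold, adjusted p = 0.00071), while a probe nearly as bright differed by 0.033 and a dimmer one by 0.13. Vegfc, which drives lymphatic vessels, was at -0.60, -0.56 and -0.54 in TAF-tib42 and at 0.96, 1.05 and 1.05 in NSF. Vegfd, a close relative of Vegfc, was at 0.94, 0.93 and 0.71 in TAF-tib42 and at 2.68, 2.56 and 2.72 in NSF. Both lay far below NSF on every array, with differences of -1.59 ± 0.044 (3-fold lower) and -1.79 ± 0.095 (3.46-fold lower). Flt1, the receptor of Vegfa that also occurs in a soluble form, was at -1.07, -1.19 and -1.06 in TAF-tib42 and at 0.83, 0.78 and 0.84 in NSF, a difference of -1.92 ± 0.053 (adjusted p = 1.2e-14). Pgf, another Flt1 ligand, differed by 0.044 ± 0.054 and was not called (adjusted p = 0.62).

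Several other ligands were lower in TAF-tib42. Gas6, the ligand of the TAM receptors Axl, Tyro3 and Mertk, was at 0.0046, 0.26 and 0.07 in TAF-tib42 and at 3.61, 3.43 and 3.50 in NSF, a difference of -3.40 ± 0.19 (10.5-fold lower, adjusted p = 2.3e-10). Its receptor Axl differed by 0.15 ± 0.055 and was not called (adjusted p = 0.053). Pleiotrophin (Ptn), a heparin-binding growth factor, was at -1.09, -1.29 and -1.21 in TAF-tib42 and at 1.76, 1.14 and 1.44 in NSF, a difference of -2.64 ± 0.14 (6.23-fold lower). The lipase inhibitor Angptl4 was at -0.18, -0.22 and -0.34 in TAF-tib42 and at 1.32, 1.59 and 1.56 in NSF, a difference of -1.74 ± 0.079. No array of one source overlapped the other in Gas6, Ptn or Angptl4. Among ligands that act on epithelium, Fgf10 differed by -0.90 ± 0.058, Fgf7 by -0.40 ± 0.048 and Hgf by -0.51 ± 0.11, and Hgf was no longer called with the pack block (adjusted p = 0.41). Of the insulin-like growth factor genes, Igf1 differed by -0.37 ± 0.047, with a dimmer probe at -1.08. Igf2 differed by -0.096 ± 0.076 and was not called (adjusted p = 0.41).

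Of 36 growth factor receptors and insulin-like growth factor binding proteins tested, 4 (11.1%) were called higher and 10 (27.8%) lower. With the pack block 9 were called, all lower. Igfbp2, which binds insulin-like growth factors in the extracellular space, was at -1.15, -1.31 and -1.55 in TAF-tib42 and at 2.71, 2.56 and 2.60 in NSF, a difference of -3.96 ± 0.077 (15.6-fold lower, adjusted p = 1.2e-16). Igfbp4 was at -1.03, -1.01 and -0.92 in TAF-tib42 and at 0.65, 0.35 and 0.52 in NSF, a difference of -1.5 ± 0.11, with a dimmer probe at -0.78. Igfbp3, Igfbp5 and Igfbp6 were not called, with differences between -0.053 and 0.052. The epidermal growth factor receptor Egfr was lower by its brightest probe (difference -1.10 ± 0.11), and its 3 dimmer probes differed by -0.53, -0.35 and -0.25.

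**Figure D2:**
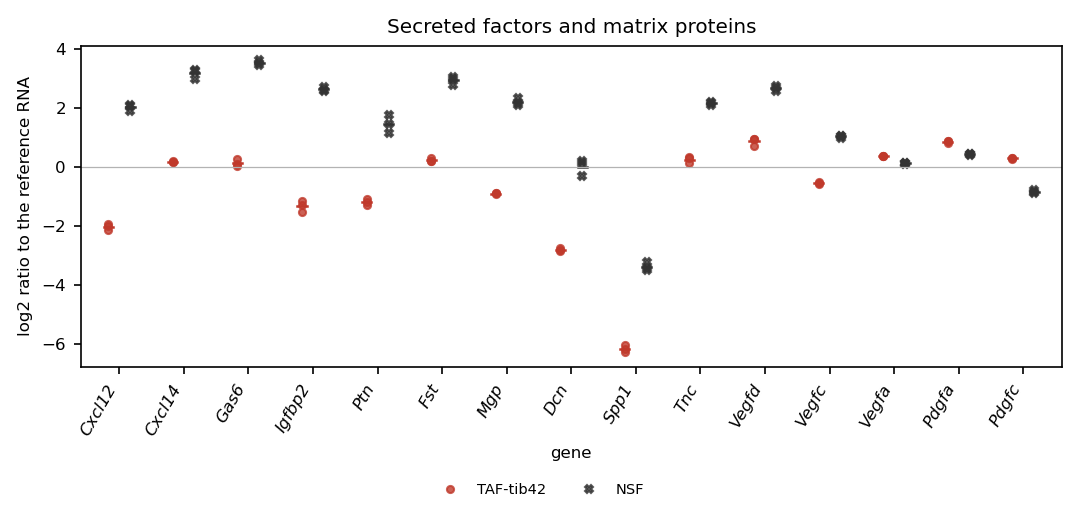
Levels of 15 secreted factors and matrix proteins, as the log2 ratio to the reference RNA (vertical axis), in TAF-tib42 (left of each pair) and NSF; each point is 1 array and each short line the mean of 3. Cxcl12 to Vegfc lie lower in TAF-tib42, and Vegfa, Pdgfa and Pdgfc higher, with no overlap in any of the 15.

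Of 72 matrix glycoproteins and proteoglycans, 5 (6.94%) were called higher and 38 (52.8%) lower, with a median difference of -0.25. With the pack block 3 were called higher and 29 lower. Mgp, an inhibitor of calcification that binds bone morphogenetic proteins, was at -0.90, -0.94 and -0.91 in TAF-tib42 and at 2.31, 2.07 and 2.14 in NSF. Decorin, a small proteoglycan that binds collagen fibrils and TGF-beta, was at -2.74, -2.84 and -2.87 in TAF-tib42 and at -0.33, 0.19 and 0.12 in NSF. Osteopontin (Spp1), a phosphoprotein bound by integrins and CD44, was at -6.30, -6.17 and -6.06 in TAF-tib42 and at -3.51, -3.44 and -3.22 in NSF. In all 3, the highest TAF-tib42 array lay below the lowest NSF array, and the differences were -3.09 ± 0.10 (8.52-fold lower), -2.81 ± 0.15 (7.03-fold lower) and -2.78 ± 0.093 (6.89-fold lower). Tenascin C (Tnc), a glycoprotein of wounds and tumour stroma, was at 0.27, 0.31 and 0.11 in TAF-tib42 and at 2.17, 2.09 and 2.18 in NSF, a difference of -1.92 ± 0.071, with a dimmer probe at -0.49. The basement membrane protein Nid2 differed by -1.62 ± 0.10, the hyaluronan synthase Has2 by -1.33 ± 0.083 and the matricellular protein Ccn1 by -1.62 ± 0.075. Fibronectin (Fn1), periostin (Postn), fibrillin 1 (Fbn1) and lumican (Lum) differed by -0.036, 0.034, -0.097 and -0.054 and were not called.

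Of 35 collagen genes, 4 (11.4%) were called higher and 14 (40%) lower, and with the pack block 1 and 9. Col8a1, a short-chain collagen of vessel walls, was at 0.096, -0.048 and -0.09 in TAF-tib42 and at 1.77, 1.75 and 1.73 in NSF, a difference of -1.76 ± 0.074 (3.4-fold lower). Col14a1, which sits on the surface of fibrils, was at 1.62, 1.98 and 1.77 in TAF-tib42 and at 3.70, 3.15 and 3.49 in NSF, a difference of -1.65 ± 0.15, while its dimmer probe differed by 0.08. Col4a1 of basement membranes differed by -0.88 ± 0.056. Of 51 matrix proteases, inhibitors and cross-linking enzymes, 7 (13.7%) were called higher and 23 (45.1%) lower, and with the pack block 3 and 8. The aggrecanase-like Adamts15 was at -0.23, -0.14 and -0.12 in TAF-tib42 and at 1.35, 1.24 and 1.39 in NSF, a difference of -1.49 ± 0.06. The inhibitors of metalloproteinases Timp1 and Timp2 differed by -0.65 ± 0.11 and -0.71 ± 0.047. Htra3, a secreted serine protease, was higher by 0.79 ± 0.084, with a dimmer probe at 0.12. The gelatinase Mmp2 differed by -0.37 ± 0.087, not called with the pack block (adjusted p = 0.11), and Mmp3, Mmp9 and Mmp13 were not called.

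Of 21 contractile genes of the myofibroblast, the fibroblast form with muscle-like fibres, 11 (52.4%) were called lower and 2 (9.52%) higher. Their median difference was -0.19, and with the pack block 8 were called, all lower. Mylk, the kinase that turns on smooth muscle myosin, was at -0.67, -0.57 and -0.72 in TAF-tib42 and at 1.71, 1.54 and 1.58 in NSF, a difference of -2.26 ± 0.052 (4.79-fold lower, adjusted p = 9.9e-16). Calponin (Cnn1), an actin-binding regulator, was at 2.48, 2.36 and 2.54 in TAF-tib42 and at 3.95, 3.80 and 4.0 in NSF, a difference of -1.45 ± 0.085. Smooth muscle myosin (Myh11) was at 0.12, 0.072 and 0.057 in TAF-tib42 and at 1.2, 1.08 and 1.28 in NSF, a difference of -1.10 ± 0.05. None of these 3 genes had overlapping arrays. Acta2, the smooth muscle actin that defines myofibroblasts, differed by 0.035 ± 0.17 and was not called. Its spot was saturated on 1 TAF-tib42 array and on all 3 NSF arrays, and dimmer probes differed by 0.0021 and -0.12. Of 9 pericyte and smooth muscle markers, Myh11 and Mcam were called lower, with a dimmer Mcam probe at -0.11, and Cspg4 was higher by 0.67, and their summed intensity was 1680 to 1750 in TAF-tib42 and 1970 to 2080 in NSF; the part of such cells was not tested.

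Of 23 genes of TGF-beta signalling, 10 (43.5%) were called lower and 3 (13%) higher, and with the pack block 6 and 1. Of 32 genes of bone morphogenetic protein (BMP) and activin signalling, 15 (46.9%) were called lower and 3 (9.38%) higher. With the pack block 10 were called lower and 2 higher. Ltbp2, a microfibril protein of the latent TGF-beta binding family, was at -0.25, -0.27 and -0.17 in TAF-tib42 and at 1.56 and 1.90 in NSF, a difference of -1.96 ± 0.096, with 1 NSF spot dropped by the outlier flag. The receptors Tgfbr1 and Tgfbr2 differed by -0.82 ± 0.05 and -0.89 ± 0.10, and their dimmer probes lay nearer to 0. The ligand Tgfb1 differed by 0.16 ± 0.068 and was not called (adjusted p = 0.097). The Id genes, inhibitors of basic helix-loop-helix factors and direct targets of BMP signals, were lower. Id1 was at -2.88, -2.81 and -2.87 in TAF-tib42 and at 0.086, 0.069 and 0.0002 in NSF, and the differences of Id2 and Id3 were -1.38 ± 0.078 and -1.48 ± 0.063. No array overlapped in Id1, whose difference was -2.91 ± 0.083 (7.5-fold lower, adjusted p = 1.9e-14). The activin antagonist follistatin (Fst) was at 0.18, 0.20 and 0.30 in TAF-tib42 and at 2.98, 2.78 and 3.05 in NSF, a difference of -2.71 ± 0.094 (6.54-fold lower). The ligand Bmp4 differed by 0.03 ± 0.062 and was not called (adjusted p = 0.79).

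Of 41 Wnt genes, 3 (7.32%) were called higher and 14 (34.1%) lower, and with the pack block 2 and 7. The secreted antagonists Sfrp1, Sfrp2 and Dkk2, which bind Wnt ligands or their co-receptors, were lower, with differences of -1.34 ± 0.12, -0.93 ± 0.067 and -0.92 ± 0.076. Rspo2, an R-spondin that strengthens Wnt signals, was at 1.53, 1.45 and 1.53 in TAF-tib42 and at 0.73, 0.71 and 0.77 in NSF, higher by 0.76 ± 0.059. Of 41 axon guidance ligands and receptors, 14 (34.1%) were called lower and 1 (2.44%) higher. With the pack block 9 were called, all lower. The ephrin receptor Epha4 was at 0.31, 0.23 and 0.27 in TAF-tib42 and at 2.45, 2.34 and 2.49 in NSF, a difference of -2.16 ± 0.046 (adjusted p = 4.6e-16). Its ligand Efna5 was at -2.10, -2.22 and -2.25 in TAF-tib42 and at 0.025, -0.073 and -0.067 in NSF, a difference of -2.15 ± 0.058. Both were far apart on every array, but a second probe of Epha4 differed by -0.61 and a second probe of Efna5, nearly as bright as the first, by -0.03. The semaphorins Sema3a and Sema3c differed by 0.029 and 0.003 and were not called.

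Positional genes differed in both directions. Of 37 Hox genes, which record where along the body axis a fibroblast arose, 7 (18.9%) were called higher and 8 (21.6%) lower. Over all genes tested, 10.8% were called higher and 13.2% lower. With the pack block 5 Hox genes were called higher and 5 lower. Hoxa10 was at 0.67, 0.85 and 0.70 in TAF-tib42 and at -0.17, -0.12 and -0.15 in NSF, a difference of 0.88 ± 0.051 (adjusted p = 2.4e-10). Hoxc9 was at 0.70, 0.69 and 0.77 in TAF-tib42 and at -0.094, -0.09 and -0.067 in NSF, a difference of 0.80 ± 0.049. Hoxb2 was at 0.84, 0.77 and 0.87 in TAF-tib42 and at 1.53, 1.5 and 1.56 in NSF, a difference of -0.70 ± 0.05. In each of these 3 the arrays did not overlap, with TAF-tib42 above NSF in Hoxa10 and Hoxc9 and below it in Hoxb2. Hoxa5 and Hoxa13 differed by 0.0026 and 0.02 and were not called. Of 61 mesenchymal transcription factors, 6 (9.84%) were called higher and 24 (39.3%) lower, and with the pack block 1 and 14. Prrx2, a homeobox gene of limb and skin mesenchyme, differed by -1.57 ± 0.054, Sox9 of the cartilage lineage by -1.03 ± 0.065 and Twist1 by -0.99 ± 0.081. Of the other Sox9 probes, one nearly as bright differed by -1.15 and a dimmer one by -0.022. Meox2 was higher by 0.80 ± 0.086, or by 0.15 in the authors' deposited table, where it was not called.

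Among inhibitors of the cell cycle and targets of the tumour suppressor p53, more genes were called lower in TAF-tib42 than higher. Of 35 tested, 18 (51.4%) were called lower and 6 (17.1%) higher (14 and 1 with the pack block), with a median difference of -0.15. The lowest were the neighbouring genes of the INK4 locus on chromosome 4. Cdkn2b, the inhibitor p15 of CDK4 and CDK6, was at -2.44, -2.57 and -2.51 in TAF-tib42 and at 0.72, 0.71 and 0.74 in NSF, a difference of -3.23 ± 0.055 (9.41-fold lower, adjusted p = 1.8e-17). Cdkn2a, which encodes the inhibitor p16 and, in another reading frame, p19Arf, was at -1.89, -1.80 and -2.14 in TAF-tib42 and at 0.052, 0.24 and 0.30 in NSF, a difference of -2.14 ± 0.12 (4.41-fold lower, adjusted p = 1.4e-10). The 3 TAF-tib42 arrays of both genes lay below all NSF arrays, and the probe of Cdkn2a was not assigned to either transcript. Both were flagged well above background in TAF-tib42, as were 89.7% to 95.8% of all Cy5 probes on an array. That flag does not show that either gene was still expressed. The 12 tested genes among the 8 nearest listed on either side differed by -0.26 to 0.34. Before the locus, Mtap differed by -0.24 (adjusted p = 0.0049) and Klhl9 by -0.26 (adjusted p = 0.0083). After it, Tusc1 differed by 0.34 (adjusted p = 9.1e-06) and Plaa by 0.27 (adjusted p = 0.00072). Ifna4, Elavl2 and Ift74 were also called, with differences of -0.13, 0.17 and -0.15, and the others were not.

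Several targets of p53 were lower too. Cdkn1a, the inhibitor p21, was at -0.085, -0.23 and -0.11 in TAF-tib42 and at 0.43, 0.59 and 0.59 in NSF, a difference of -0.68 ± 0.054 (adjusted p = 2.4e-08). Zmat3, an RNA-binding target of p53, was at -0.76, -0.81 and -0.71 in TAF-tib42 and at 0.63, 0.57 and 0.61 in NSF, a difference of -1.36 ± 0.049 (adjusted p = 1.2e-12). Ccng1, cyclin G1, was at -0.61, -0.45 and -0.66 in TAF-tib42 and at 0.49, 0.43 and 0.49 in NSF, a difference of -1.04 ± 0.062. All 3 were lower on every TAF-tib42 array than on any NSF array, and a dimmer probe of Ccng1 differed by -0.30. Phlda3, a repressor of AKT, differed by -0.59 ± 0.048. Mdm2, the ligase that degrades p53, differed by -0.83 ± 0.094, with the probe well above background on 2 of 3 NSF arrays and a dimmer probe at -0.02; from the Cy5 channel alone its difference was 0.47 and was not called. Trp53 itself was higher by 0.18 ± 0.048 (adjusted p = 0.011), not called with the pack block (adjusted p = 0.21) or without NSF replicate 1 or TAF-tib42 replicate 1 (adjusted p = 0.059 and 0.053). Bax, a death gene among its targets, differed by 0.10 ± 0.055 and was not called. Cdkn1c, the inhibitor p57, was lower (difference -0.86 ± 0.054). Sesn3, a stress-response gene regulated by FOXO factors and chosen after its value was seen, was lower (difference -2.33 ± 0.11), with another probe at -1.06.

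More genes of replication and mitosis were called higher than lower, by small amounts. Of 56 tested, 17 (30.4%) were called higher and 4 (7.14%) lower, with a median difference of 0.20. With the pack block only 2 were called higher and 2 lower, and with log ratios scaled to the same spread 6 were called higher. Without NSF replicate 2 or 3, or without TAF-tib42 replicate 1 or 3, 9 to 11 were called higher, and 11 with the scanner's own or the authors' deposited log ratios. A fit of only the 6 arrays called 32 higher. Plk1, a kinase of mitosis, was at -0.33, -0.30 and -0.25 in TAF-tib42 and at -0.81, -0.78 and -0.85 in NSF, a difference of 0.52 ± 0.098 (adjusted p = 6e-04). Top2a, the topoisomerase of dividing cells, was at -1.59, -1.54 and -1.51 in TAF-tib42 and at -2.04, -1.89 and -1.92 in NSF, a difference of 0.41 ± 0.071 (adjusted p = 0.00029). Neither gene overlapped between sources, and with the pack block their adjusted p were 0.13 and 0.08. Pcna and Mcm2 of the replication machinery differed by 0.15 ± 0.091 and 0.25 ± 0.099 and were not called. The D-type cyclins, which drive CDK4 and CDK6, lay the other way. Ccnd2 was at 0.57, 0.33 and 0.54 in TAF-tib42 and at 1.77, 1.72 and 1.74 in NSF, a difference of -1.26 ± 0.054 (adjusted p = 4.1e-12), and Ccnd1 was lower (difference -0.57 ± 0.089).

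**Figure D3:**
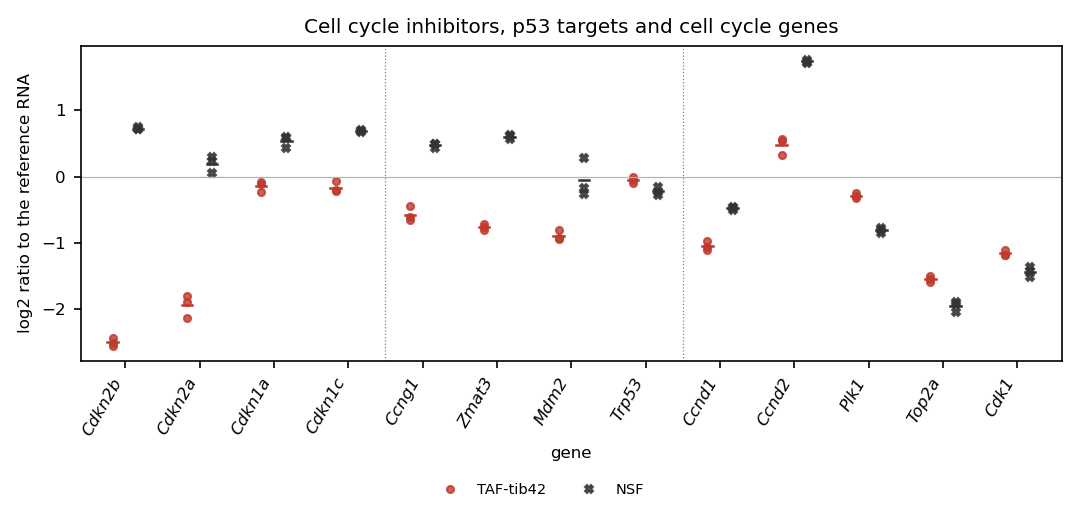
Levels of 13 genes, as the log2 ratio to the reference RNA (vertical axis), in TAF-tib42 (left of each pair) and NSF, with dotted lines between CDK inhibitors, p53 genes and cell cycle genes; each point is 1 array and each short line the mean of 3. The 4 CDK inhibitors lie lower in TAF-tib42 and Plk1 and Top2a slightly higher.

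Immediate early genes, which growth factors and stress switch on within minutes, included several that were lower. Of 36 immediate early and heat shock genes, 18 (50%) were called lower and 2 (5.56%) higher (13 and 0 with the pack block). Egr1, a zinc finger factor, was at -3.23, -3.25 and -2.98 in TAF-tib42 and at -0.48, -0.79 and -0.72 in NSF, a difference of -2.49 ± 0.12 (5.63-fold lower, adjusted p = 1.2e-11). Fos, a partner in the AP-1 dimer, was at -3.07, -3.08 and -2.90 in TAF-tib42 and at -0.67, -0.81 and -1.01 in NSF, a difference of -2.19 ± 0.12. Dusp6, the phosphatase that ends ERK signals, was at -3.41, -3.41 and -3.64 in TAF-tib42 and at -1.26, -1.30 and -1.27 in NSF, a difference of -2.21 ± 0.067 (adjusted p = 3.5e-14). In each of the 3 the sources were fully separated. Phlda1 differed by -1.85 ± 0.086, Egr2 by -1.53 ± 0.13 and Nr4a1 by -1.40 ± 0.14. Jun differed by -0.29 ± 0.05, while Myc, Atf3, Fosl1 and the heat shock gene Hspa1a were not called, with differences from -0.082 to 0.074. The labels do not say when or in what medium the cells were lysed.

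Metabolic genes gave a mixed picture. Of 34 hypoxia and glycolysis genes, 10 (29.4%) were called higher and 3 (8.82%) lower. With the pack block 4 genes were called, all higher. Ddit4, an inhibitor of mTORC1 induced by stress, was at 0.0064, 0.13 and 0.14 in TAF-tib42 and at -0.94, -0.93 and -0.97 in NSF, a difference of 1.04 ± 0.07 (adjusted p = 2.2e-09). The transporter Slc16a11 was at 2.27, 2.24 and 2.27 in TAF-tib42 and at 0.74, 0.71 and 0.69 in NSF, a difference of 1.55 ± 0.065 (2.92-fold). Both were higher on every TAF-tib42 array. The hypoxia targets Car9 and Egln3 differed by -0.06 ± 0.044 and -0.053 ± 0.055 and were not called. Of 36 sterol and fatty acid genes, 17 (47.2%) were called lower and 5 (13.9%) higher, and with the pack block 11 and 3. Cyp7b1, which breaks down oxysterols, was at 0.69, 0.60 and 0.72 in TAF-tib42 and at 2.69, 2.54 and 2.83 in NSF, a difference of -2.01 ± 0.15 (4.04-fold lower). Ch25h, which makes 25-hydroxycholesterol and is itself induced by interferon, was at 0.77, 0.71 and 0.52 in TAF-tib42 and at 2.35 and 2.13 in NSF, a difference of -1.58 ± 0.094, with 1 NSF spot dropped. Of 21 prostaglandin genes, 5 (23.8%) were called higher and 7 (33.3%) lower, and with the pack block 1 and 3. Prostacyclin synthase (Ptgis) was at -0.30, -0.40 and -0.37 in TAF-tib42 and at 1.95, 1.93 and 1.98 in NSF, a difference of -2.31 ± 0.067 (4.95-fold lower), and the cyclooxygenases ran apart, with differences of 0.81 ± 0.052 for Ptgs1 and -0.38 ± 0.078 for Ptgs2, of which the second was not called with the pack block (adjusted p = 0.072).

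The 2 named genes with the largest positive differences belonged to none of these pathways. Mela, a melanoma antigen encoded by an endogenous retrovirus, was at 0.64, 0.69 and 0.64 in TAF-tib42 and at -4.50, -4.51 and -4.33 in NSF, a difference of 5.10 ± 0.077 (34.3-fold, adjusted p = 4.9e-18). Xlr, an X-linked gene first found in lymphocytes, was at 0.032, -0.18 and -0.019 in TAF-tib42 and at -3.12, -3.07 and -3.20 in NSF, a difference of 3.07 ± 0.06 (8.41-fold, adjusted p = 1.2e-16). Both genes have near copies in the genome, which a probe may also read. Of the 12 tested members of the list of retrovirus-related and X-linked germline genes, 3 (25%) were called higher and 3 (25%) lower. The summed Cy5 intensity of this list was 32300 to 33300 in TAF-tib42 and 2040 to 2240 in NSF. It was also high in TAF-el4 (23900 to 25800) and TAF-tib48 (35200 to 45200), but not in TAF-tib6 (2260 to 2500), so a high sum is not particular to TAF-tib42. Other named genes that were higher include Fbxo32, a ubiquitin ligase of muscle wasting, at 1.56 ± 0.053, the adaptor Bcar3 at 1.51 ± 0.067 and Ero1a, an oxidase of the endoplasmic reticulum, at 1.38 ± 0.062. The connexin Gjb2 was higher by 1.49 ± 0.12, with a dimmer probe at 0.13, and the olfactory receptor Olfr1221 by 1.44 ± 0.37, a call lost with the pack block (adjusted p = 0.12). The cell-adhesion gene Cdh13 was higher by 1.14 ± 0.057, and Vcam1, the endothelial and stromal ligand of leukocyte integrins, was lower (difference -1.11 ± 0.075).

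Rpl39l and Rps4l, copies of ribosomal protein genes, were among the lowest named genes. Of the 13 tested ribosomal protein paralogues, 3 (23.1%) were called higher and 3 (23.1%) lower (1 and 3 with the pack block). Their median difference was 0.029. Rpl39l, a copy of Rpl39 known for expression in testis, was at -2.95, -3.17 and -3.14 in TAF-tib42 and at 0.86, 0.83 and 0.79 in NSF, a difference of -3.91 ± 0.10 (15-fold lower, adjusted p = 7.9e-15). Rps4l, a copy of Rps4x, was at 0.11, 0.071 and 0.051 in TAF-tib42 and at 3.56, 3.35 and 3.68 in NSF, a difference of -3.45 ± 0.082 (10.9-fold lower). Each was separated on every array, while a dimmer probe of Rpl39l differed by -0.79. The parent gene Rpl39 differed by 0.029 ± 0.045 and was not called, and Rps4x was saturated on all 6 arrays. Other named genes that were lower include Syt13, of the synaptotagmin family, at -3.36 ± 0.18, with a dimmer probe at -0.06, the carboxypeptidase-like Cpxm1 at -3.31 ± 0.25 and embigin (Emb), a partner of monocarboxylate transporters, at -3.14 ± 0.19, with a dimmer probe at -1.84. Of 18 imprinted genes, 8 (44.4%) were called lower and 10 were not called, and with the pack block 4 were called, all lower. Dio3, which inactivates thyroid hormone, differed by -1.83 ± 0.25 and its neighbour in the same imprinted cluster, Dlk1, by -1.09 ± 0.067, while Mest and Ndn were not called.

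**Figure D4:**
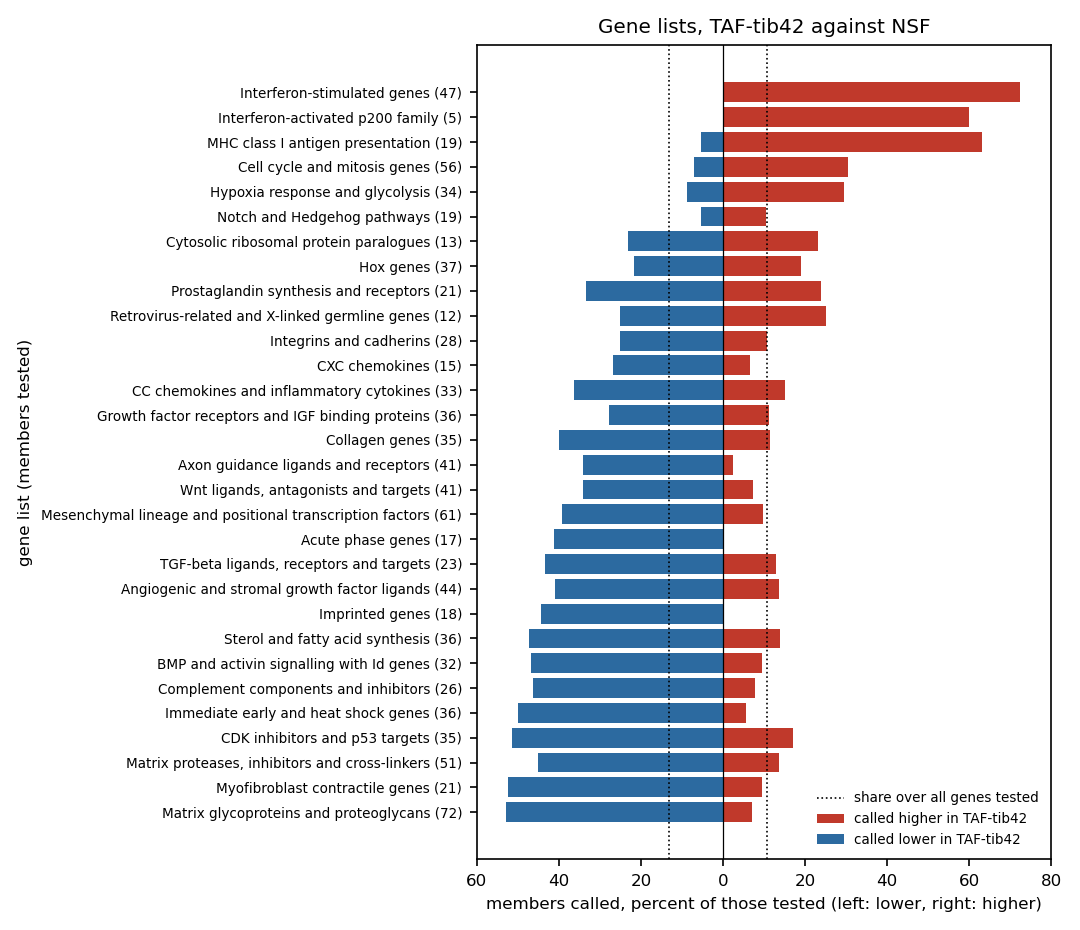
Share of the tested members of each gene list that were called lower (bars to the left) or higher (bars to the right) in TAF-tib42 than in NSF, with the number tested in brackets; dotted lines mark the shares over all genes tested, 13.2% lower and 10.8% higher. The interferon-stimulated genes stand at the top with 72.3% higher, while most lists of secreted, matrix and signalling genes have longer bars to the left.

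TAF-tib42 was then set against the mean of TAF-el4, TAF-tib48 and TAF-tib6, a contrast that does not use the NSF arrays as a group. It asks which of the differences mark TAF-tib42 among the sources named TAF. Of 31177 genes, 6161 (19.8%) were called, 2782 (8.92%) higher and 3379 (10.8%) lower, and with the pack block 3570. The 3 TAF-tib42 arrays lay outside all 9 other TAF arrays for 2610 genes (8.37%), above them in 1275 (4.09%) and below them in 1335 (4.28%). For scale, 17.4% of genes were called between TAF-el4 and NSF, 26.2% between TAF-tib48 and NSF and 11.3% between TAF-tib6 and NSF, on the same NSF arrays. Interferon-stimulated genes were higher here too, with 38 of 47 called higher, 9 not called and a median difference of 0.94. The mean level of Isg15 was 2.74 in TAF-tib42, against 0.44 in TAF-el4, 0.84 in TAF-tib48 and 0.65 in TAF-tib6, a difference of 2.10 ± 0.14 (adjusted p = 1.8e-09). That of Ifit1 was 2.61 in TAF-tib42, against -0.26 in TAF-el4, 0.59 in TAF-tib48 and 0.28 in TAF-tib6, a difference of 2.40 ± 0.14 (adjusted p = 3e-10). For H2-D1 it was 0.15 in TAF-tib42, against -1.76 in TAF-el4, -1.44 in TAF-tib48 and -1.5 in TAF-tib6, a difference of 1.72 ± 0.046. In all 3 genes TAF-tib42 had the highest mean of the sources.

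The INK4 genes were lower than in each of the other TAF sources. Mean levels of Cdkn2b were -2.51 in TAF-tib42, against 0.35 in TAF-el4, 0.78 in TAF-tib48 and 0.98 in TAF-tib6, a difference of -3.21 ± 0.045 (adjusted p = 1.2e-18). Mean levels of Cdkn2a were -1.94 in TAF-tib42, against 0.41 in TAF-el4, -0.27 in TAF-tib48 and 0.99 in TAF-tib6, a difference of -2.32 ± 0.096 (adjusted p = 2.7e-12). The proliferins Prl2c5 and Prl2c3, secreted relatives of prolactin named for their induction in growing fibroblasts, had the largest negative differences. The mean level of Prl2c5 was -1.39 in TAF-tib42, against 4.17 in TAF-el4, 3.85 in TAF-tib48 and 1.45 in TAF-tib6, with NSF at 1.55. Against the other TAF sources the difference was -4.54 ± 0.11 for Prl2c5 and -4.18 ± 0.11 for Prl2c3, and against NSF it was -2.94 and -2.64. TAF-tib42 lay lowest and TAF-el4 and TAF-tib48 highest in both, with TAF-tib6 near NSF; dimmer probes differed from NSF by -1.95 for Prl2c5 and by -1.51 and -1.03 for Prl2c3. The 2 genes are near copies, so their probes may read each other's RNA.

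Several genes that were lower than in NSF were lower than in the other TAF sources as well. Mean levels of Cxcl12 were -2.03 in TAF-tib42, against -0.34 in TAF-el4, -0.90 in TAF-tib48 and 1.63 in TAF-tib6, a difference of -2.16 ± 0.14, and those of Igfbp2 were -1.34 in TAF-tib42, against 0.62 in TAF-el4, 0.80 in TAF-tib48 and 1.69 in TAF-tib6, a difference of -2.37 ± 0.063. Rps4l, Cxcl14 and Id1 differed by -2.63 ± 0.067, -2.29 ± 0.063 and -2.26 ± 0.068, and TAF-tib48 came nearest to TAF-tib42 in all 3. C3 differed by -0.17 ± 0.18 and was not called (adjusted p = 0.58). Syt13 was lower (difference -0.62 ± 0.15, adjusted p = 0.0046), but was not called with the pack block (adjusted p = 0.42). Il6 had a mean level of 4.24 in TAF-tib42, against 2.80 in TAF-el4, 1.58 in TAF-tib48 and 3.72 in TAF-tib6, with NSF at 5.15, and was higher than the other TAF sources by 1.54 ± 0.082 (adjusted p = 8.5e-11). Saa3 and Cxcl1 were higher than the other TAF sources by 2.34 ± 0.21 and 1.93 ± 0.096, and lower than NSF. The mean level of Cxcl5 was 4.39 in TAF-tib42, against 1.19 in TAF-el4, 0.64 in TAF-tib48 and 3.92 in TAF-tib6, which put it above the mean of the 3 by 2.47 ± 0.20 (adjusted p = 2.2e-08), although TAF-tib6 was close to TAF-tib42. Rab7b, a GTPase of endosomes, was higher by 1.84 ± 0.039, and the tetraspanin Tspan18 was lower (difference -2.26 ± 0.038). Each lay outside all 9 arrays, which was a condition for naming it. Pdgfc was higher than the mean of the other TAF sources by 0.68 ± 0.053 (adjusted p = 1.7e-08), and for Vegfa the difference was 0.14 ± 0.039 (adjusted p = 0.013), not called with the pack block (adjusted p = 0.11).

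**Figure D5:**
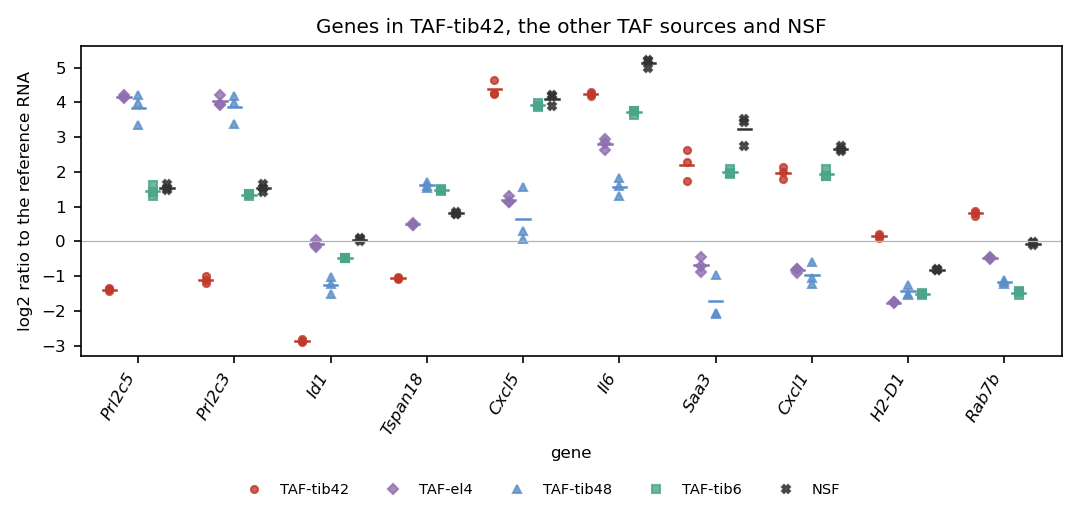
Levels of 10 genes that differ between TAF-tib42 and the other TAF sources, as the log2 ratio to the reference RNA (vertical axis), in the 5 sources; each point is 1 array and each short line the mean of 3. Prl2c5 and Prl2c3 are lowest in TAF-tib42 and highest in TAF-el4 and TAF-tib48, while in Il6, Saa3 and Cxcl1 TAF-tib42 lies above TAF-el4 and TAF-tib48 and below NSF.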

How the data were processed

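Agilent oligonucleotide arrays of 2 colours were read for 15 samples, with the source in Cy5 and the reference RNA in Cy3. Per the file headers, the authors extracted the spots with Agilent Feature Extraction 8.5.1.1; the labels also name version 9.5. The deposited scanner files hold Cy5 and Cy3 intensity per spot and a log10 ratio of Cy5 over Cy3, and the authors' deposited value table holds the same log ratios as log2 values, used as an alternative.

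From the intensities, normexp background correction (offset 50) and loess within each array gave log2 ratios in limma 3.58.1 (R 4.3.3). Outlier-flagged spots were left out. The brightest probe stood for a gene. A gene was tested if some source had Cy5 well above background on its 3 arrays; 31177 of 33462 names passed. Median Cy5 intensity per array was 174.7 to 285.9, against a background of 52 to 56. Precision is limited by the number of arrays. Of 41174 probes, 22072 were named through accessions in the RefSeq table.

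One limma fit with the 15 arrays and 1 mean for each source gave both contrasts, two-sided, with Benjamini-Hochberg adjustment over all genes. "Called" means an adjusted p under 0.05. Named genes included the 15 highest and 15 lowest called differences without array overlap. They also included the 10 highest and 10 lowest against the other TAF sources, outside all 9 arrays of those. Up to 6 called members of each list and chosen key members were added. Clone and predicted names were passed over. Some genes that this rule named are not reported here. The members and gene lists were chosen with earlier results of these data known. Replicate numbers did not pair the arrays (correlations of same-numbered deviations -0.143, -0.045 and -0.057). The fit was tested on simulated data. Alternatives were other background corrections, normalizations, filters, probe rules, blocks, the authors' values and leaving out each array.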

Additional observations from a re-analysis of the deposited data

Results flagged for a closer look

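In 7 named genes the difference from NSF was called one way in TAF-tib42 and the opposite way in at least 2 of the other TAF sources. All 4 differences share the NSF arrays. The contrast of TAF-tib42 with the mean of the other TAF sources, which does not use NSF, was called in each.

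Ifit1 differed from NSF by 1.78 in TAF-tib42, and by -1.09 in TAF-el4, -0.24 in TAF-tib48 and -0.55 in TAF-tib6. For Trim30a the difference was 1.38 in TAF-tib42, and -0.42 in TAF-el4, -0.52 in TAF-tib48 and -0.48 in TAF-tib6. H2-D1 was at 0.96 in TAF-tib42, and at -0.95 in TAF-el4, -0.63 in TAF-tib48 and -0.69 in TAF-tib6. Rab7b followed with 0.87 in TAF-tib42, and -0.42 in TAF-el4, -1.10 in TAF-tib48 and -1.41 in TAF-tib6.

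The other 3 genes were lower in TAF-tib42. Prl2c5 differed by -2.94 in TAF-tib42, and by 2.61 in TAF-el4, 2.30 in TAF-tib48 and -0.10 in TAF-tib6. Prl2c3 differed by -2.64 in TAF-tib42, and by 2.49 in TAF-el4, 2.32 in TAF-tib48 and -0.19 in TAF-tib6. Tspan18 differed by -1.87 in TAF-tib42, and by -0.30 in TAF-el4, 0.81 in TAF-tib48 and 0.67 in TAF-tib6.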

How the results depend on the processing

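A block on slide pack left 2423 called genes between TAF-tib42 and NSF, 714 higher and 1709 lower, with 299 list members against 486 without it, and 3570 against the other TAF sources, 1532 higher and 2038 lower. The scanner's own log ratios gave 118 genes higher and 457 lower by at least 2-fold, the authors' deposited value table gave 119 and 456, and the Cy5 channel alone gave 138 higher. Called genes otherwise numbered 6243 to 7611 over the alternatives that kept all arrays. Directions turned for Pdgfrb with scaled log ratios (0.23), and for Mdm2 (0.47) and Sema3a (-0.18) with Cy5 alone. Hey2 and Itga6 were not called with the pack block, nor were Saa3, Hey2 and Hgf with the authors' deposited values or Itga6 and Tyk2 with Cy5 alone. The cause was not tested in any of these.

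Leaving out 1 array at a time gave 5985 to 6504 called genes against NSF, 2557 to 2796 of them higher and 3424 to 3732 lower, with 45 to 50 higher and 225 to 238 lower by at least 2-fold. Of the 30 genes named for the size of their difference, 29 to 30 were called, and 436 to 454 list members. Those 30 were picked as the largest called differences on the same arrays, so their count was largely set by that choice. Olfr1221 was not called without NSF replicate 1 (1.08, adjusted p = 0.054), nor Trp53 without that array or TAF-tib42 replicate 1, nor Pdgfd without NSF replicate 3 (-0.17, adjusted p = 0.054). Calls were gained for Axl without TAF-tib42 replicate 1 or NSF replicate 3, Mmp3 and Mmp9 without NSF replicate 1, and Ccl2 without NSF replicate 2. Prostaglandin genes called higher fell to 3 without NSF replicate 1 or 3, against 5, and those called lower to 4 without NSF replicate 3 or TAF-tib42 replicate 2, against 7. Against the other TAF sources 4655 to 6356 genes were called, 1999 to 2825 higher and 2656 to 3531 lower. Taking the replicate number as a replicate block gave 7180 calls against NSF, 3207 higher and 3973 lower, and 5918 against the other TAF sources. It changed no call of a named gene, and of the list counts it moved those called higher among complement, CXC chemokine and axon guidance genes by over 1.5 times, to 1, 2 and 0.

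Values within a slide pack and a block on scan day were not run, because no pack held both sources and all arrays were scanned on 1 day. The limits are 1 source a group, no label on whether arrays repeat 1 culture, dyes that were never swapped, 40 genes saturated on all 6 arrays, and dim probes near background, where a fold is too small.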

Other observations

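Markers of other cell types added values to the comparison with NSF. Of 12 adipocyte markers, 5 were called higher in TAF-tib42 and 3 lower (1 and 1 with the pack block): the lipase Lpl differed by 0.83 and the fatty acid carrier Fabp4 by -0.65, while the hormone Adipoq was not called. Of 15 epithelial markers, Krt8 and Krt19 were called higher, at 0.37 and 0.75, and Perp lower (1 higher and 2 lower with the pack block), with Epcam and Krt5 not called. Of 8 melanocyte markers, Mitf and Tyrp1 were called higher, at 0.25 and 0.21, the pigment enzyme Tyr was called lower, at -0.165, and Dct and Pmel were not called. With the pack block the 8 markers gave no call. The 10 skeletal muscle markers tested had differences of -0.058 to 0.085.

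Of 19 genes of the Notch and Hedgehog pathways, 2 (10.5%) were called higher and 1 (5.26%) lower, against 10.8% and 13.2% of all genes tested. Hey2 was higher by 0.22, and the Hedgehog transducer Smo was lower (difference -0.51, with a dimmer probe at -0.031). With the pack block the pathways had 1 gene called, which was lower. Of 28 integrins and cadherins, 3 (10.7%) were called higher and 7 (25%) lower, and with the pack block 2 and 5. The share called higher was near that over all genes. Itga9, a tenascin and osteopontin receptor, differed by -0.88 and Itga6, a laminin receptor, by 0.33. Itga11, a collagen receptor of myofibroblasts that is not counted among the 28, differed by -1.55.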
